A study of Nicotiana tabacum with 6 samples.

Results

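The genes described here are those that the deposited annotation of cultivated tobacco (Nicotiana tabacum) names as ethylene synthesis enzymes or ethylene receptors. A gene was kept when its first name was exactly ACS1, ACO, EIN4, ETR1 or ETR2, which gave 35 of the 69500 genes in the table. ACS1 had 12 copies, ACO 7, EIN4 10, ETR2 2 and ETR1 4. Numbered ACO names were left out because they may stand for aconitase, and so was 1 gene written aco in lower case. The table pairs identifiers with symbols but gives no descriptions, so the role of each copy is read from its symbol. Each copy is told apart by its identifier in the Nitab4.5 gene set, and no genome coordinates or sequences are printed, since the table holds none and 0 of these identifiers matched the tobacco RefSeq gene table.

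Seedlings were grown in nutrient solution with 7.5 mM ammonium nitrate (control) or with 0.75 mM (low nitrogen), and both solutions were renewed every 7 days over 15 days of treatment. Polyadenylated RNA was sequenced from 3 libraries of each group, called control 1 to 3 and low nitrogen 1 to 3. The labels name the tissue as seedling, without an organ, cultivar or plant age, and do not say whether libraries came from separate plants, so a p-value here reflects only how far these samples spread, part of which may be technical. The comparison asks which of these transcripts differ when the nitrogen supply is lowered.

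Ethylene is a gaseous plant hormone made from methionine. Methionine is first activated to S-adenosylmethionine, ACC synthase turns that into ACC (1-aminocyclopropane-1-carboxylate), usually the limiting step, and ACC oxidase, which needs oxygen, turns ACC into ethylene. The receptors sit in the endoplasmic reticulum membrane and are best known from Arabidopsis, where ETR1 belongs to the first receptor subfamily and ETR2 and EIN4 to the second. They are negative regulators in that plant: without ethylene they keep the kinase CTR1 active, which holds back EIN2 and the transcription factors EIN3 and EIL1, and bound ethylene switches them off. In flooded or oxygen-poor tissue, ethylene is known to accumulate and to act beside the low-oxygen response.

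Library totals ran from 13027374 to 15620067 counts, and 44587 to 46169 genes had at least 1 count. Levels are CPM, that is counts brought to one library total, scaled with edgeR's TMM factors, as mean ± SD over 3 libraries. They are not divided by gene length, so a level is compared only across libraries and not between genes. Replicates of both groups differed from each other by far more than counting noise, with a chi-square per degree of freedom of 13.04 to 25.8. Control 3 stood apart on the summed level of 158 light-harvesting, photosystem and Rubisco small-subunit genes, at 1892 CPM against 207 and 167 CPM in control 1 and 2. The low nitrogen libraries held 1079.9, 516 and 245 CPM of these transcripts, 10 of the 158 genes had no count in any library, and CAB40 was at 0 in all its copies. A summed level of 33 genes used as root markers was 1865 to 2139.5 CPM in the controls against 1679 to 2119 CPM in low nitrogen, with 8 of the 33 at 0 throughout. In every library this root sum, not divided by gene length, was above the photosynthesis sum. Which organs made up the samples labelled seedling was not tested, so the levels may not stand for whole seedlings. In such bulk samples, fewer cells of a type and less RNA per cell cannot be told apart.

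Most copies of the ACS1, ACO, EIN4 and ETR2 genes had lower mean levels in low nitrogen, and those of ETR1 were nearly level. Of the 35 copies, 29 had enough counts to be tested. Among these 29, 24 had a log2 fold change (low nitrogen over control) below 0 and 5 above 0, with a median of -0.70. Over all 38482 genes tested, 49.7% were below 0 and the median was 0.00292. With edgeR's quasi-likelihood test and Benjamini-Hochberg adjustment over all genes, 0 of the 29 copies passed an adjusted p of 0.05, as did 0% of all genes. The smallest adjusted p was 0.255 among the copies and 0.138 over all genes, and limma-voom also called 0 copies. With an unadjusted p below 0.05 in the edgeR test, 16 of the 29 copies (55.2%) were lower, against 5.66% of all genes, and 0 were higher, against 6.1% of all genes. DESeq2, which called more genes than the other tools on these counts, put 7 of the 29 (24.1%) past its adjusted threshold as lower, against 0.819% of all genes, and 0 as higher, against 0.709%. In 11 of the 29 (37.9%) every low nitrogen library lay below every control library, against 8.54% of all genes, and in 0 every library lay above, against 9.66%.

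These counts rest in part on single libraries. With DESeq2 refitted without 1 library, an alternative added after seeing the data, 4 copies passed as lower without control 1 and 3 without control 2, where 0.519% and 0.855% of all genes passed in either direction. It called 12 copies without control 3 and 12 without low nitrogen 3, where the share of all genes was also higher, at 4.29% and 3.20%. Without low nitrogen 1 and without low nitrogen 2 it called 3 and 4 copies, beside 0.489% and 0.999% of all genes. In all of these refits 0 copies passed as higher. The ACS1 copy Nitab4.5_0002381g0080, the ACO copy Nitab4.5_0009635g0010 and the EIN4 copy Nitab4.5_0000342g0270 were called in every one of them, and also with both control 3 and low nitrogen 1 left out, where 8 copies and 2.05% of all genes passed. With any 1 library left out, 12 to 16 copies were lower with an unadjusted p below 0.05 in the edgeR test, while the share of all genes below it in either direction ran from 5.62% without control 1 to 15.3% without control 3. The sign was not settled in 8 copies near 0, which changed direction when some 1 library was left out: ACS1 Nitab4.5_0003015g0110, Nitab4.5_0007906g0010 and Nitab4.5_0000915g0150, ACO Nitab4.5_0000091g0420 and Nitab4.5_0000130g0140, EIN4 Nitab4.5_0004928g0060 and ETR1 Nitab4.5_0000639g0220 and Nitab4.5_0005080g0010.

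**Figure D1:**
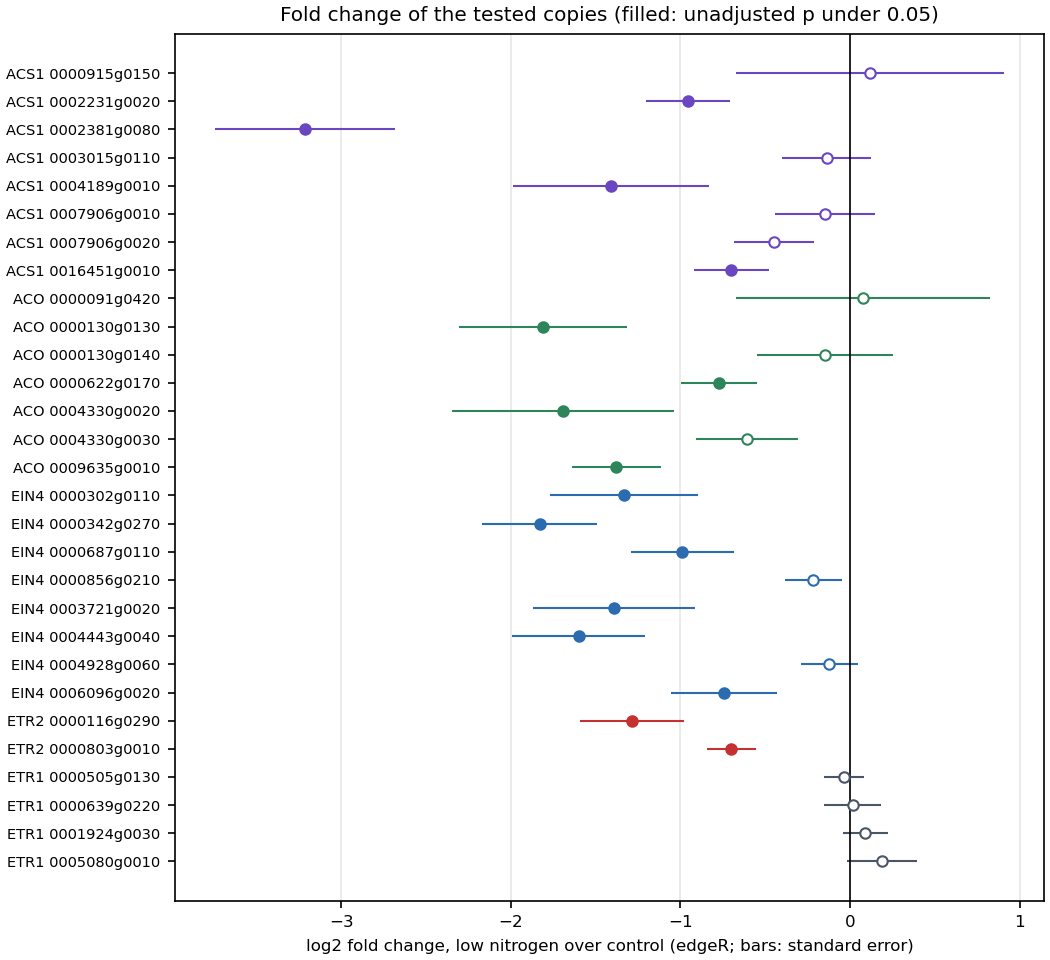
Log2 fold change (low nitrogen over control, edgeR) of the 29 tested copies, grouped by name, with bars of 1 standard error. The points of ACS1, ACO, EIN4 and ETR2 lie mostly left of 0, reaching -3.22 for the ACS1 copy Nitab4.5_0002381g0080, and the 4 ETR1 points lie between -0.03 and 0.19.

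ACS1 is the name given to ACC synthase, the enzyme that makes ACC. Its most affected copy, Nitab4.5_0002381g0080, had 42.4, 19.7 and 13.5 CPM in control 1 to 3 and 1.68, 2.12 and 4.30 CPM in low nitrogen 1 to 3. The lowest control was above the highest low nitrogen library, and the controls themselves spread widely, with control 1 highest. The means were 25.2 ± 15.2 CPM (SD, n = 3) and 2.70 ± 1.40 CPM (SD, n = 3), so that low nitrogen held 10.7% of the control level. Its log2 fold change of -3.22 (SE 0.53) was the largest decrease among the tested copies, with an edgeR adjusted p of 0.255 and a DESeq2 adjusted p of 2.43e-07. Without control 1 the edgeR log2 fold change was -2.62.

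Another 3 ACS1 copies had all low nitrogen libraries below all controls, though DESeq2 did not call them with all libraries. With these, 4 of the 8 tested ACS1 copies (50%) were apart in this way, against 8.54% of all genes. The copy Nitab4.5_0002231g0020 had 23.9, 18.3 and 20.04 CPM in the controls against 8.54, 8.68 and 14.8 CPM in low nitrogen, a log2 fold change of -0.96 (SE 0.25, edgeR adjusted p 0.347, DESeq2 adjusted p 0.0559). The copy Nitab4.5_0016451g0010 had 18.3, 11.3 and 14.1 CPM in the controls against 7.84, 8.43 and 10.6 CPM in low nitrogen, a log2 fold change of -0.70 (SE 0.22, edgeR adjusted p 0.377). For Nitab4.5_0004189g0010 the controls were close together at 12.02, 10.7 and 10.1 CPM, while low nitrogen ran from 1.33 and 2.69 CPM to 8.32 CPM in low nitrogen 3. That last library sets most of the spread of this copy: the log2 fold change was -1.41 (SE 0.58, edgeR adjusted p 0.417) with it and -2.43 without it.

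The remaining 4 tested ACS1 copies overlapped between the groups, with edgeR adjusted p from 0.482 to 0.963. The copy Nitab4.5_0007906g0010 had 46.8, 51.8 and 27.0 CPM in the controls against 28.2, 49.8 and 35.2 CPM in low nitrogen. Its neighbour by identifier, Nitab4.5_0007906g0020, had 8.12, 7.13 and 6.09 CPM in the controls against 4.55, 6.62 and 4.44 CPM in low nitrogen, and only low nitrogen 2 reached into the control range. The copy Nitab4.5_0003015g0110 had 32.2, 34.1 and 23.4 CPM in the controls against 20.5, 38.0 and 22.9 CPM in low nitrogen, so the highest library of all 6 was low nitrogen 2. In both Nitab4.5_0007906g0010 and Nitab4.5_0003015g0110, control 3 was well under the other controls and low nitrogen 2 well over the other low nitrogen libraries. The copy Nitab4.5_0000915g0150 varied most, with 8.53, 3.60 and 2.12 CPM in the controls against 2.66, 1.56 and 11.2 CPM in low nitrogen. Its log2 fold change of 0.12 (SE 0.79) has no settled direction, since it was 0.84 without control 1 and -1.17 without low nitrogen 3.

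The other 4 ACS1 copies were too low to test. The copy Nitab4.5_0000947g0030 had 5, 4 and 4 counts in the controls against 0, 0 and 1 in low nitrogen, in sum 13 against 1. The depth-scaled ratio of low nitrogen to control was 0.0684, with an exact 95% interval of 0.00161 to 0.455 that covers counting error only. No count was seen in any library for Nitab4.5_0002262g0060 or Nitab4.5_0003779g0190, and Nitab4.5_0002262g0070 had a single count, in control 3.

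ACO is the name given here to ACC oxidase, the enzyme of the last step. The copy Nitab4.5_0009635g0010 had 94.7, 115 and 63.4 CPM in the controls against 26.7, 35.3 and 42.9 CPM in low nitrogen. The groups did not overlap, and low nitrogen held 38.5% of the control mean (90.9 ± 25.8 CPM against 35.0 ± 8.11 CPM, SD, n = 3). Its log2 fold change was -1.38 (SE 0.26), with an edgeR adjusted p of 0.316 and a DESeq2 adjusted p of 0.000583. The copy Nitab4.5_0000622g0170 had 109.6, 110.3 and 84.0 CPM in the controls against 49.3, 78.4 and 49.9 CPM in low nitrogen, a log2 fold change of -0.77 (SE 0.22, edgeR adjusted p 0.363, DESeq2 adjusted p 0.0776). Its groups did not overlap either, though control 3 and low nitrogen 2 came close to each other.

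A pair of ACO copies stood out in control 2. The copy Nitab4.5_0000130g0130 had 73.4, 169 and 68.1 CPM in the controls against 28.1, 14.7 and 45.6 CPM in low nitrogen. The groups did not overlap, and the log2 fold change was -1.81 (SE 0.50, edgeR adjusted p 0.356, DESeq2 adjusted p 0.0130). The copy Nitab4.5_0004330g0020 had 144, 315 and 93.1 CPM in the controls against 35.9, 24.6 and 110.3 CPM in low nitrogen. Here low nitrogen 3 lay above control 3, and the log2 fold change of -1.69 (SE 0.65, edgeR adjusted p 0.407) was -1.06 without control 2 and -2.60 without low nitrogen 3. In both copies control 2 was the highest and low nitrogen 2 the lowest of the 6 libraries, and their log2 levels had a Pearson r of 0.969 over the 6 libraries, given as a description.

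Each of these copies has a neighbour by identifier that is also named ACO, and neither neighbour had groups apart. The copy Nitab4.5_0000130g0140 had 75.4, 105 and 128 CPM in the controls against 79.9, 48.7 and 149.8 CPM in low nitrogen, with the highest value in low nitrogen 3. The copy Nitab4.5_0004330g0030 had 58.3, 121 and 82.1 CPM in the controls against 54.4, 44.0 and 73.4 CPM in low nitrogen, with only low nitrogen 3 inside the control range. Their log2 fold changes were -0.15 (SE 0.40) and -0.61 (SE 0.30), with edgeR adjusted p of 0.900 and 0.464. Summed as pairs, the copies Nitab4.5_0000130g0130 and Nitab4.5_0004330g0020 held 1.62, 2.14 and 0.767 times the level of their neighbours in the controls against 0.477, 0.424 and 0.698 times in low nitrogen. The ratio in every low nitrogen library was below that in every control, with control 3 nearest. These pairs were grouped after their values were seen, and their difference was not tested.

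The last ACO copy, Nitab4.5_0000091g0420, had 9.10, 7.73 and 30.2 CPM in the controls against 20.7, 3.62 and 25.5 CPM in low nitrogen. Low nitrogen 2 was the lowest and control 3 the highest library, so the groups overlapped fully. The log2 fold change of 0.08 (SE 0.75, edgeR adjusted p 0.974) was 0.97 without control 3 and -0.37 without low nitrogen 3.

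**Figure D2:**
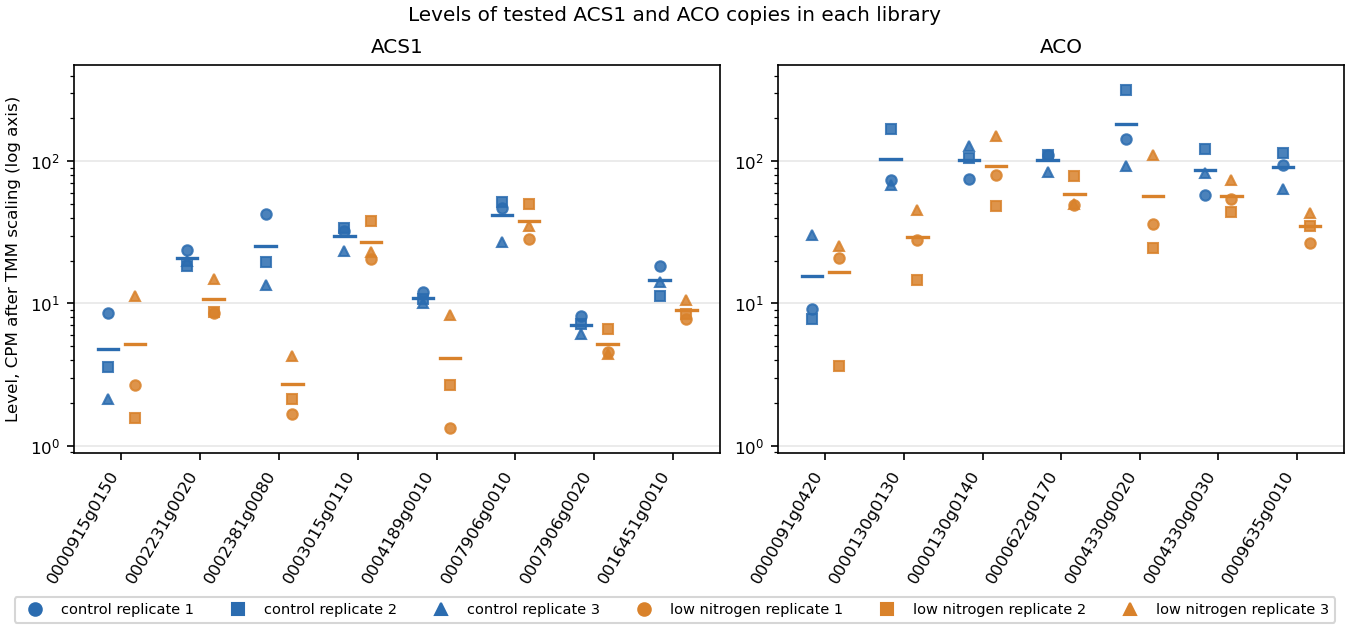
Level (CPM, log axis) of each tested ACS1 and ACO copy in the 3 control and 3 low nitrogen libraries, 1 point per library, with a bar at the group mean. Low nitrogen lies wholly below control in 4 of 8 ACS1 copies (50%) and 3 of 7 ACO copies (42.9%), against 8.54% of all genes tested. The gap is widest at the ACS1 copy Nitab4.5_0002381g0080.

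EIN4 names a second-subfamily ethylene receptor. All 8 tested copies had a log2 fold change below 0, with a median of -1.16. In the edgeR test 6 (75%) were lower with an unadjusted p below 0.05, against 5.66% of all genes. In 2 of the 8 (25%) low nitrogen lay wholly below control, against 8.54% of all genes. DESeq2 called the same 2 (25%) as lower, against 0.819% of all genes. The copy Nitab4.5_0000342g0270 had 35.1, 25.9 and 16.1 CPM in the controls against 6.44, 5.37 and 9.85 CPM in low nitrogen, which is 28.1% of the control mean. The copy Nitab4.5_0004443g0040 had 21.0, 33.2 and 13.5 CPM in the controls against 4.83, 6.93 and 10.5 CPM in low nitrogen, or 32.9%. Within each group, control 3 was the lowest control and low nitrogen 3 the highest low nitrogen library in both. The log2 fold changes were -1.83 (SE 0.34, edgeR adjusted p 0.315, DESeq2 adjusted p 0.000257) and -1.60 (SE 0.39, edgeR adjusted p 0.344, DESeq2 adjusted p 0.0116).

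The copies Nitab4.5_0000302g0110 and Nitab4.5_0003721g0020 shared their order of libraries closely and overlapped between groups only through low nitrogen 3 and control 3. The first had 132, 111 and 64.4 CPM in the controls against 22.0, 32.6 and 66.9 CPM in low nitrogen. The second had 99.4, 72.6 and 44.5 CPM in the controls against 17.1, 16.7 and 48.6 CPM in low nitrogen. In both, low nitrogen 3 stood just above control 3, while low nitrogen 1 and 2 lay far below every control. Their log2 fold changes were -1.33 (SE 0.44, edgeR adjusted p 0.382, DESeq2 adjusted p 0.0830) and -1.39 (SE 0.48, edgeR adjusted p 0.388, DESeq2 adjusted p 0.102). Without low nitrogen 3 the second was -2.09.

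For Nitab4.5_0000687g0110 and Nitab4.5_0006096g0020 the overlap came from control 3. The first had 81.0, 90.7 and 39.6 CPM in the controls against 30.8, 35.2 and 40.4 CPM in low nitrogen. The second had 89.4, 89.2 and 37.6 CPM in the controls against 40.6, 42.8 and 45.5 CPM in low nitrogen. Control 1 and 2 lay close to each other and above every low nitrogen library in both copies, while control 3 was below low nitrogen 3 in the first and below all low nitrogen libraries in the second. The log2 fold changes were -0.99 (SE 0.30, edgeR adjusted p 0.367) and -0.74 (SE 0.31, edgeR adjusted p 0.423).

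The last pair of tested EIN4 copies was close to level. The copy Nitab4.5_0000856g0210 had 48.2, 54.5 and 36.0 CPM in the controls against 38.8, 40.8 and 39.7 CPM in low nitrogen, and Nitab4.5_0004928g0060 had 52.4, 62.9 and 45.1 CPM in the controls against 42.0, 54.1 and 51.2 CPM in low nitrogen. Both overlapped, with log2 fold changes of -0.22 (SE 0.17, edgeR adjusted p 0.619) and -0.12 (SE 0.17, edgeR adjusted p 0.782). The EIN4 copies Nitab4.5_0000342g0260 and Nitab4.5_0004443g0050 were too low to test. The first had 2 counts, both in low nitrogen 2, and the second had 1, 0 and 2 counts in the controls against 2, 0 and 0 in low nitrogen.

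The 8 tested EIN4 copies can thus be set out as 4 pairs, which were grouped after their values were seen. The sum of Nitab4.5_0000342g0270 and Nitab4.5_0004443g0040 in low nitrogen was 30.4% of its control mean, that of Nitab4.5_0000302g0110 and Nitab4.5_0003721g0020 was 39.0%, that of Nitab4.5_0000687g0110 and Nitab4.5_0006096g0020 was 55.1%, and that of Nitab4.5_0000856g0210 and Nitab4.5_0004928g0060 was 89.2%. Over the near-level last pair, the first pair held 0.557, 0.504 and 0.365 times its level in the controls against 0.139, 0.130 and 0.224 times in low nitrogen. The second pair held 2.30, 1.56 and 1.34 times in the controls against 0.484, 0.520 and 1.27 times in low nitrogen, and the third 1.69, 1.53 and 0.951 times against 0.883, 0.822 and 0.946 times. In each of these ratios all controls lay above all low nitrogen libraries, by little except for the first pair, and the differences between pairs were not tested. Over the 6 libraries, Pearson's r of log2 levels was 0.980 between Nitab4.5_0000302g0110 and Nitab4.5_0003721g0020 and 0.966 between Nitab4.5_0000687g0110 and Nitab4.5_0006096g0020. Tobacco is an allotetraploid, and near-identical copies may share reads, which the counting could have split between them.

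ETR2 names another second-subfamily receptor. Both of its copies were lower in every low nitrogen library than in any control, against 8.54% of all genes. DESeq2 called both as lower, against 0.819% of all genes. The copy Nitab4.5_0000116g0290 had 108, 102 and 51.4 CPM in the controls against 28.1, 34.4 and 44.6 CPM in low nitrogen. Control 3 was again the nearest to low nitrogen, and low nitrogen 3 the nearest to the controls. Its log2 fold change was -1.29 (SE 0.31), with an edgeR adjusted p of 0.332 and a DESeq2 adjusted p of 0.0109. The copy Nitab4.5_0000803g0010 had 32.5, 27.0 and 28.3 CPM in the controls against 18.3, 15.9 and 19.9 CPM in low nitrogen, with little spread in either group and control 3 between the other controls. Its log2 fold change was -0.70 (SE 0.14), with an edgeR adjusted p of 0.332 and a DESeq2 adjusted p of 0.0219. With DESeq2, neither ETR2 copy passed without control 1, control 2, low nitrogen 1 or low nitrogen 2. Both passed without control 3 and without low nitrogen 3, where 4.29% and 3.20% of all genes passed in either direction.

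ETR1 names the first-subfamily receptor, and its 4 copies differed by less than the spread between replicates. The copy Nitab4.5_0000505g0130 had 25.2, 24.9 and 22.3 CPM in the controls against 23.4, 24.3 and 23.0 CPM in low nitrogen. The copy Nitab4.5_0000639g0220 had 25.0, 27.9 and 20.9 CPM in the controls against 20.8, 27.2 and 26.6 CPM in low nitrogen. Both overlapped fully, and control 3 was the lowest control in each. The copy Nitab4.5_0001924g0030 had 30.1, 33.4 and 28.0 CPM in the controls against 28.8, 33.7 and 35.0 CPM in low nitrogen. The copy Nitab4.5_0005080g0010 had 15.8, 19.2 and 11.2 CPM in the controls against 18.1, 17.7 and 16.9 CPM in low nitrogen, with control 2 highest and control 3 lowest. The log2 fold changes of the 4 copies ran from -0.03 to 0.19 with SE of 0.12 to 0.20, and edgeR adjusted p ran from 0.723 to 0.977.

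**Figure D3:**
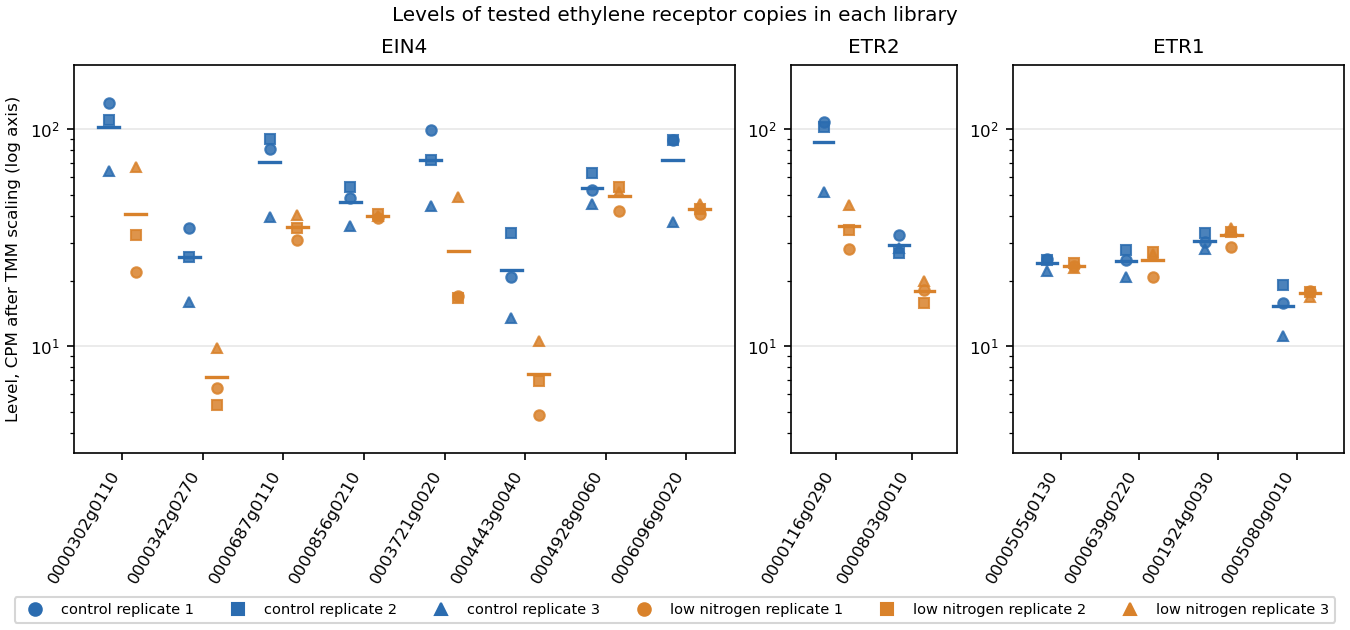
Level (CPM, log axis) of each tested EIN4, ETR2 and ETR1 copy in the 3 control and 3 low nitrogen libraries, 1 point per library, with a bar at the group mean. Both ETR2 copies and 2 of 8 EIN4 copies have all low nitrogen points below all control points, as do 8.54% of all genes tested. The ETR1 points of the 2 groups lie over each other.

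Summing the copies of each name removes the effect of how counted reads were split among its copies. It does not restore reads left uncounted, nor those shared with genes of other names. ETR2 summed to 140.1, 129 and 79.7 CPM in the controls against 46.3, 50.3 and 64.5 CPM in low nitrogen, which is 46.2% of the control mean, with no overlap. ACO summed to 564, 942 and 549 CPM in the controls against 295, 249.3 and 497 CPM in low nitrogen, or 50.7%, also with no overlap. EIN4 summed to 558, 539.5 and 297 CPM in the controls against 203, 235 and 313 CPM in low nitrogen, or 53.8%, with low nitrogen 3 above control 3. ACS1 summed to 193, 157 and 117 CPM in the controls against 75.3, 118 and 112 CPM in low nitrogen, or 65.5%, with low nitrogen 2 just above control 3. ETR1 summed to 96.2, 105 and 82.4 CPM in the controls against 91.0, 103 and 101 CPM in low nitrogen, or 104%, with wide overlap.

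A fit on counts summed by first name over the whole table (16100 names tested, 0 past the edgeR threshold) gave ETR2 a log2 fold change of -1.13 (SE 0.24, edgeR adjusted p 0.311, DESeq2 adjusted p 0.00284). ACO, EIN4 and ACS1 had -0.995 (SE 0.32), -0.91 (SE 0.28) and -0.63 (SE 0.24), with edgeR adjusted p of 0.359, 0.351 and 0.378 and DESeq2 adjusted p of 0.0810, 0.0728 and 0.244. ETR1 had 0.04 (SE 0.12, edgeR adjusted p 0.905). Within each library, the receptor sums shifted against ETR1. The sum of EIN4 over that of ETR1 was 5.80, 5.12 and 3.60 in the controls against 2.23, 2.28 and 3.08 in low nitrogen, and ETR2 over ETR1 was 1.46, 1.23 and 0.967 in the controls against 0.509, 0.489 and 0.636 in low nitrogen. Neither ratio overlapped between the groups. This follows from dividing sums already seen to be lower by one seen to be level, so it is no separate evidence. The EIN4 sum itself overlapped, and ETR1 was 82.4 CPM in control 3 against 101 CPM in low nitrogen 3. No share over all genes was computed for such ratios. EIN4 over ETR2, in contrast, was 3.98, 4.18 and 3.72 in the controls against 4.38, 4.67 and 4.85 in low nitrogen, so the ratio was slightly higher in every low nitrogen library. These ratios do not depend on library scaling, they are not levels per transcript length, and they were not tested.

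Genes of the low-oxygen response also differed between the libraries. The summed level of 40 genes named ADH, PDC2, LBD40, HB1, HB2 or PCO4 (alcohol dehydrogenase, pyruvate decarboxylase and low-oxygen regulators and markers) was 5197, 2843 and 1458 CPM in the controls against 862, 1071 and 1478 CPM in low nitrogen, and 2 of the 40 had no count. Control 1 was highest, and control 3 and low nitrogen 3 lay almost together. Of 36 tested, 25 were below 0 with a median log2 fold change of -0.73. In the edgeR test 16 of the 36 were lower and 1 was higher with an unadjusted p below 0.05, against 5.66% and 6.1% of all genes. DESeq2 called 6 as lower and 0 as higher, against 0.819% and 0.709% of all genes. The part of low oxygen, and of the photosynthetic transcripts in which control 3 stood apart, in the ethylene gene levels was not tested.

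The order of the libraries recurred across the copies. Control 3 was the lowest control in 23 of the 29 tested copies (79.3%), against 35.0% of all genes tested. Low nitrogen 3 was the highest low nitrogen library in 20 of the 29 (69.0%), against 34.1% of all genes. It was so in 15 of the 16 copies that were lower with an unadjusted p below 0.05 in the edgeR test. For these 16, no share over all genes lower at that threshold was computed. Copies that move closely together or share reads are not separate sightings of this order. Replicates of a group carry no order in the labels, and no batch is given.

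**Figure D4:**
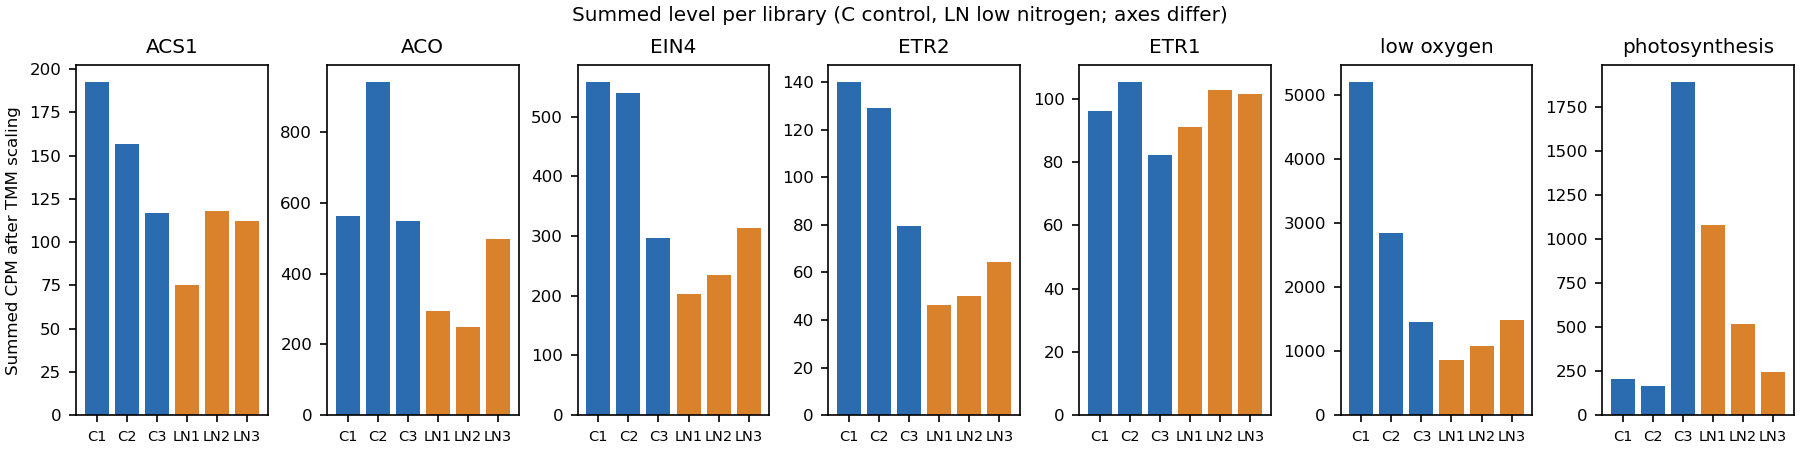
Summed level (CPM) per library of the copies of ACS1, ACO, EIN4, ETR2 and ETR1, and of the low-oxygen and photosynthesis marker genes, 1 bar per library. ETR2 and ACO have all low nitrogen bars below the controls, and ETR1 is level. Control 3 is the lowest control for low-oxygen genes (1458 CPM) and the highest for photosynthesis genes (1892 CPM).

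The genes with the pattern most like the copy with the highest mean of each name were found by Pearson's r of log2(CPM + 1) over the 6 libraries among 22406 candidates with a symbol and a mean of at least 5 CPM. With so few libraries many genes reach a high r, and all points share libraries, so these are descriptions. Nearest to the ETR2 copy Nitab4.5_0000116g0290 were TMN7 (r = 0.999), VDAC2 (0.995) and Timm17b (0.993). TMN7 had 46.7, 45.99 and 39.5 CPM in the controls against 35.1, 37.0 and 38.6 CPM in low nitrogen, a far smaller difference in the same order of libraries. Nearest to the ACO copy Nitab4.5_0004330g0020 were VAMP721 (0.996), MYB14 (0.995) and TOGT1 (0.989). TOGT1, at 156, 310.4 and 99.6 CPM in the controls against 45.1, 43.5 and 110.7 CPM in low nitrogen, came close to that copy in size of difference too. For the EIN4 copy Nitab4.5_0000302g0110 the nearest were Neurl1b (0.996), At5g55070 (0.995) and GAMMACA1 (0.995). The ACS1 copy Nitab4.5_0007906g0010 had Tbc1d15 (0.993), RAD23B (0.992) and ZIP2 (0.991) nearest. The nearest to the ETR1 copy Nitab4.5_0001924g0030 were At2g20760 (0.996), HMA5 (0.993) and PYD1 (0.988). Among the named copies themselves, the ACO copy Nitab4.5_0009635g0010 and the EIN4 copy Nitab4.5_0004443g0040 had an r of 0.988, and the ACS1 copy Nitab4.5_0002381g0080 and the EIN4 copy Nitab4.5_0000342g0270 an r of 0.987.

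Of the other genes of ethylene synthesis and signalling, 88 were in the table under the names listed and 69 were tested. Their median log2 fold change was 0.01, with 35 above 0 and 34 below. In the edgeR test 7 (10.1%) were higher and 12 (17.4%) lower with an unadjusted p below 0.05, against 6.1% and 5.66% of all genes. None (0) passed edgeR's adjusted threshold, and DESeq2 called 2 higher and 1 lower, where 0.709% and 0.819% of all genes passed. The lower ones were mostly genes of methionine activation, which make S-adenosylmethionine. Of 14 such genes, all tested, 7 (50%) were lower and 1 (7.14%) was higher with an unadjusted p below 0.05 in the edgeR test. The shares of all genes were 5.66% and 6.1%. The copies named SAMS1, SAMS2, SAM2 and METK1, 10 in all, had log2 fold changes below 0, and the 4 named SAM3 were above 0.

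The SAMS1 copy Nitab4.5_0003524g0020, an S-adenosylmethionine synthetase, had 210.2, 199.9 and 146 CPM in the controls against 88.1, 104 and 129 CPM in low nitrogen. Its groups did not overlap, with a log2 fold change of -0.79 (SE 0.21, edgeR adjusted p 0.353, DESeq2 adjusted p 0.0403). The METK1 copy Nitab4.5_0000895g0150 had 334, 313 and 294 CPM in the controls against 163, 249.8 and 186 CPM in low nitrogen, also apart, with -0.65 (SE 0.20, edgeR adjusted p 0.368). The other ACC synthase names tested were ACS8 and ACS6. The ACS8 copy Nitab4.5_0000072g0280 had 6.33, 6.45 and 9.49 CPM in the controls against 13.6, 10.6 and 10.8 CPM in low nitrogen, with no overlap and a log2 fold change of 0.65 (SE 0.22, edgeR adjusted p 0.386). All 4 tested copies of ACS8 were above 0, 1 of them (25%) with an unadjusted p below 0.05 in the edgeR test, against 6.1% of all genes. Another 11 were too low to test, and the 1 ACS6 gene was lower at that threshold.

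LHT1 is an amino acid transporter that also carries ACC in Arabidopsis. Both of its copies were higher in every low nitrogen library than in any control, against 9.66% of all genes. The copy Nitab4.5_0000442g0280 had 3.25, 3.75 and 6.23 CPM in the controls against 12.03, 8.06 and 11.7 CPM in low nitrogen, a log2 fold change of 1.26 (SE 0.30, edgeR adjusted p 0.332, DESeq2 adjusted p 0.0256). The copy Nitab4.5_0000223g0270 had 5.20, 7.05 and 7.50 CPM in the controls against 14.8, 13.7 and 9.78 CPM in low nitrogen, a log2 fold change of 0.95 (SE 0.23, edgeR adjusted p 0.333, DESeq2 adjusted p 0.0471). The 11 tested genes of the methionine cycle, which recovers methionine from the by-product of ACC synthesis, had a median log2 fold change of -0.03 with 0 with an unadjusted p below 0.05. The 5 EOL1 genes, whose Arabidopsis relatives mark ACC synthase for breakdown, were all above 0, with a median of 0.18 and 0 at that threshold.

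Downstream of the receptors, the 26 tested signalling genes were divided, with a median log2 fold change of 0.14. In the edgeR test 3 (11.5%) were higher and 3 (11.5%) lower with an unadjusted p below 0.05, against 6.1% and 5.66% of all genes. EIN2, the membrane protein that carries the signal on, had 3 tested copies with 0 at that threshold. Its copy Nitab4.5_0027568g0010 had 67.0, 86.6 and 74.2 CPM in the controls against 86.1, 91.7 and 69.2 CPM in low nitrogen, with overlap and a log2 fold change of 0.12 (SE 0.16, edgeR adjusted p 0.787). EIL1, a transcription factor of the EIN3 family, had 13 tested copies, of which 10 were above 0. At an unadjusted p below 0.05 in the edgeR test, 3 (23.1%) were higher and 1 (7.69%) was lower, against 6.1% and 5.66% of all genes. The EIL1 copy Nitab4.5_0002687g0110 had 84.2, 111 and 104 CPM in the controls against 156, 129 and 134 CPM in low nitrogen, with no overlap and 0.49 (SE 0.16, edgeR adjusted p 0.383). The lower copy, Nitab4.5_0003796g0080, had 6.42, 5.25 and 5.31 CPM in the controls against 3.71, 2.19 and 3.33 CPM in low nitrogen, also with no overlap, and -0.88 (SE 0.26, edgeR adjusted p 0.367). The EIL1 copy with the highest mean, Nitab4.5_0000428g0210, had 145, 174 and 164 CPM in the controls against 202, 230.0 and 169 CPM in low nitrogen, where low nitrogen 3 lay inside the control range.

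EBF1, an F-box protein that targets EIN3 and EIL1 for breakdown and is itself an ethylene-induced gene in Arabidopsis, had 8 tested copies, 4 above and 4 below 0. The copy Nitab4.5_0004209g0030 had 136, 157 and 69.5 CPM in the controls against 59.2, 66.8 and 62.2 CPM in low nitrogen, with no overlap but control 3 close to low nitrogen. Its log2 fold change was -0.95 (SE 0.29, edgeR adjusted p 0.367). The copy Nitab4.5_0000209g0110 had 118, 175 and 152 CPM in the controls against 192, 176 and 132 CPM in low nitrogen, which overlapped. XRN4, an exonuclease that removes EBF transcripts in Arabidopsis, had 26.2, 21.0 and 22.4 CPM in the controls against 22.8, 18.4 and 17.2 CPM in low nitrogen for Nitab4.5_0005126g0020, with overlap, and the 1 gene named MKK9 had no count. The 6 genes named RTH, relatives of a receptor partner, had a median log2 fold change of -0.63. Of these, 1 (16.7%) was lower with an unadjusted p below 0.05 in the edgeR test, against 5.66% of all genes. Other names on the planned pathway list, such as ERS1, CTR1 and EIN3, gave no gene in the set analysed here.

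**Figure D5:**
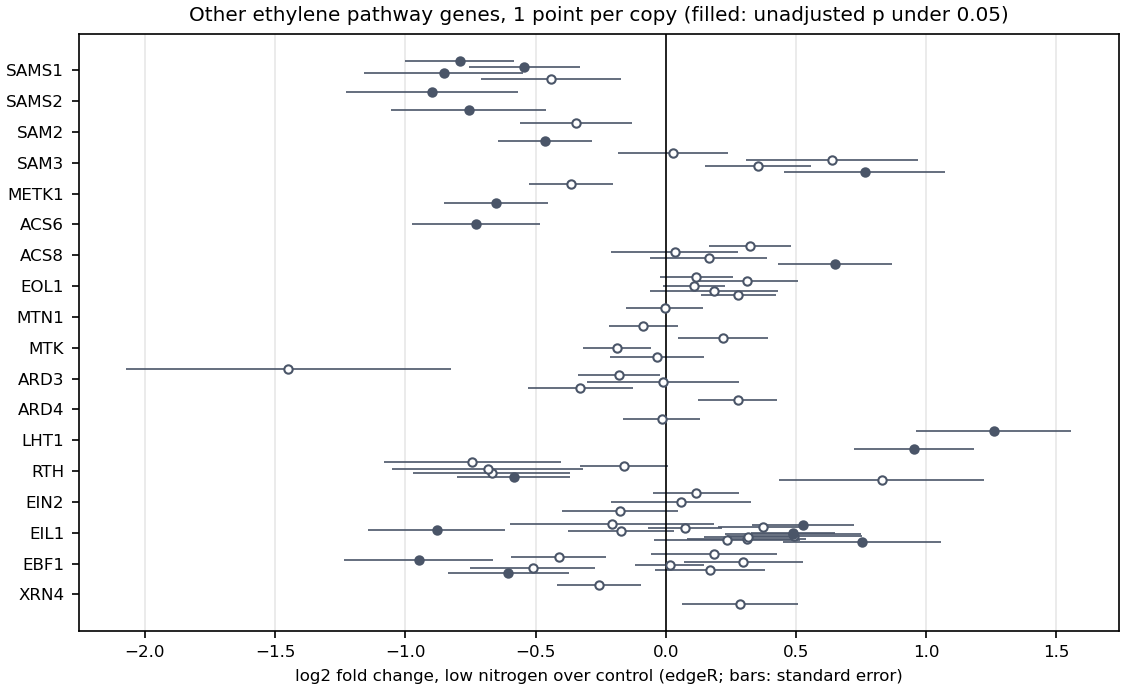
Log2 fold change (low nitrogen over control, edgeR) of the 69 other tested pathway genes, 1 point per gene, grouped by name. Genes of methionine activation (SAMS1, SAMS2, SAM2, SAM3 and METK1) lie mostly below 0 with a median of -0.45. Both LHT1 genes lie above 0, and the signalling genes (EIN2, EIL1, EBF1 and XRN4) scatter around a median of 0.14.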

How the data were processed

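RNA-seq of 6 tobacco libraries labelled as seedling was used, 3 per group. Per the labels' protocols, polyadenylated RNA was made into libraries with a SMARTER mRNA kit, and the submitters' processing notes name the aligner HISAT2. The aligner version, how reads were counted, whether strand was used and how multiply mapped reads were handled are not given in these sources. The table deposited by the authors holds raw counts per gene for 69500 Nitab4.5 genes, with symbols.

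From these counts, genes were kept with filterByExpr (38482 left), scaled by TMM and compared with edgeR 4.0.16 in R 4.3.3 (quasi-likelihood test, Benjamini-Hochberg over all genes tested, threshold 0.05, no covariate). The SE of a log2 fold change was taken from the F statistic. Alternatives were DESeq2 1.42.0, limma-voom from limma 3.58.1, other scalings, other low-count filters, counts summed by name, a replicate block, and each library left out. The scripts were tested on simulated data, where DESeq2 called unchanged genes more often than edgeR or limma-voom did. Those counts were drawn gene by gene with the spread that edgeR had estimated. They therefore cannot show which DESeq2 calls in the real libraries are right. The planned exact permutation test on summed levels of each name is not reported, since no p is given for a score over these genes. Pearson's r used log2(CPM + 1).

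The 5 names, the other pathway names and the marker lists were chosen with earlier results of these data known. All tested copies of the 5 names are described. Of the other pathway genes, the 4 with the smallest p in each direction and the copy with the highest mean of each signalling name were taken by rule. The 3 most alike genes were taken for the highest copy of each name. Genes of one symbol may share reads.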

Additional observations from a re-analysis of the deposited data

How the results depend on the processing

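The 7 calls by DESeq2 are the main dependence on method. It called 588 genes in all where edgeR called 0, and leaving out 1 library gave 0 to 11 genes with edgeR (11 without control 3) and 0 of the copies in each. With 1 library left out, DESeq2 called 3 to 12 of the copies and 191 to 1669 of all genes. The 16 copies lower with an unadjusted p below 0.05 were 12 to 16 without 1 library, 14 with the replicate number as a block and 15 to 17 under the other tools, scalings and filters. The 19 other pathway genes at that threshold were 10 with the replicate block and 8 to 26 without 1 library. The labels give no pairing by replicate number. Correlations of same-numbered deviations were -0.35, 0.14 and -0.25, and 2 of 6 samples correlated best with their own number. The largest were 0.39 for control 3 with low nitrogen 1 and 0.29 for control 1 with low nitrogen 3. Deviations within a group of 3 sum to 0, so these values cannot settle whether samples were paired.

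Of 406 refitted log2 fold changes of the 29 tested copies, 376 kept direction and side of the threshold, 7 passed it (all with DESeq2), 0 lost it and 23 changed sign, all in copies near 0. ACO Nitab4.5_0000091g0420 was -0.10 with limma-voom, -0.030 with the replicate block and -0.37 to 0.97 without 1 library. ACS1 Nitab4.5_0000915g0150 was -0.16, -0.24 and -1.17 to 0.84 under the same settings. Without 1 library, ACO Nitab4.5_0000130g0140 ran from -0.67 to 0.16, ACS1 Nitab4.5_0003015g0110 from -0.46 to 0.013, ACS1 Nitab4.5_0007906g0010 from -0.40 to 0.035, EIN4 Nitab4.5_0004928g0060 from -0.24 to 0.013, ETR1 Nitab4.5_0000639g0220 from -0.10 to 0.12 and ETR1 Nitab4.5_0005080g0010 from -0.0085 to 0.38. Without both control 3 and low nitrogen 1, added after seeing the data, ACO Nitab4.5_0000130g0140 was 0.13 and ETR1 Nitab4.5_0005080g0010 was -0.031. The causes were not tested. The counts of 6 of the 35 copies were too low to test.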
